A study of Mus musculus with 2 samples.

Results

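The immediate early and heat shock genes described here are 32 genes of the 19046 non-mitochondrial genes counted in both libraries, chosen by name as 25 early genes and 7 chaperones. The early genes are the Fos family (Fos, Fosb, Fosl1, Fosl2), the Jun family (Jun, Junb, Jund), 9 other transcription factors (Egr1, Egr2, Egr3, Atf3, Klf2, Klf6, Myc and the nuclear receptors Nr4a1 and Nr4a2) and 9 genes of the response and its feedback (Ier2, Ier3, Ier5, Dusp1, Dusp2, Zfp36, Btg2, Nfkbia, Gadd45b). The chaperones are Hspa1a, Hspa1b, Hspa8, Hsp90aa1, Hsph1, Dnajb1 and Hspb1. Levels were taken in 1 wildtype C57BL/6J mouse and 1 Eppk1-/- mouse, a knockout of the cytolinker epiplakin that was backcrossed into C57BL/6J. Neither mouse was treated, and no age was given. A dorsal skin punch of each was minced, dissociated with warm enzymes, fixed and measured with the 10x Genomics Fixed RNA Profiling (Flex) assay, a method in which probe pairs on the RNA of single cells are counted by unique molecular identifiers (UMIs).

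Immediate early genes are switched on within minutes of a stimulus, without new protein synthesis, by factors that wait on their promoters, such as serum response factor and CREB. Fos and Jun proteins pair to form AP-1, Egr and Nr4a proteins are transcription factors of their own, and several early genes end the response: Dusp phosphatases switch off MAP kinases, Zfp36 destroys short-lived mRNAs and Nfkbia holds back NF-kappaB. Heat shock genes answer unfolded protein through the factor Hsf1, and their products refold proteins (the Hsp70 proteins of Hspa1a, Hspa1b and Hspa8, the Hsp90 protein of Hsp90aa1), assist Hsp70 (Dnajb1, Hsph1) or keep unfolded proteins soluble (Hspb1). Both groups are also known to rise while a tissue is cut and dissociated, a step that these cells went through before they were fixed and whose part in the levels was not tested.

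Cells with 200 to 45000 UMIs, with between 100 and 7500 genes and with no more than 10% of UMIs from mitochondria were kept, 8875 wildtype and 8617 Eppk1-/- cells with medians of 4941 and 4992 UMIs, and 1141 droplet barcodes occurred among the kept cells of both libraries. The members took 2382150 wildtype and 1899060 Eppk1-/- UMIs. Cells were put into classes by marker genes: 5481 wildtype and 4016 Eppk1-/- keratinocyte-like, 1670 and 2646 fibroblast-like, 549 and 832 macrophage-like (with C1q), 207 and 247 myeloid cells low in C1q, 172 and 154 T and NK-like and 85 and 91 sebocyte-like cells. The markers given next took part in setting the classes, so their levels describe the classes and do not test the names. In the wildtype library Krt5 stood at 4329 counts per 1000000 UMIs (CPM) in keratinocyte-like and 13.4 in fibroblast-like cells. Col1a1 stood at 31680 CPM in fibroblast-like and 57.0 in keratinocyte-like cells. C1qa stood at 6576 CPM in macrophage-like and 32.1 in the C1q-low myeloid cells, which carried Cd207 at 5712. Krt10, a keratin of the upper epidermis, stood at 10980 and 11360 CPM in keratinocyte-like cells and still at 157 to 572 CPM in the fibroblast-like, macrophage-like, C1q-low and T and NK-like cells of both libraries, so that low levels of genes abundant in keratinocytes cannot be told apart from free RNA in the other classes. Eppk1 itself fell from 2994 CPM in wildtype to 779 CPM in Eppk1-/- keratinocyte-like cells, from 1223 to 71.4 CPM in the basal stage and from 6240 to 3045 CPM in the granular stage. What the assay's probes cover of the targeted Eppk1 allele was not given in the sources used here.

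With 1 library per genotype no difference could be tested, so the spread between mice is unknown and every interval below is an exact 95% interval for counting error alone. Levels are CPM, a gene's UMIs scaled to all non-mitochondrial UMIs of the class, and are compared between classes and libraries for the same gene and not between genes, since probes differ. Ratios are log2 of Eppk1-/- over wildtype CPM. A gene was read where both libraries together held at least 50 UMIs, and a log2 ratio of at least 0.5 in either direction is called past the size rule. Beside the counts of members past it stands the share of all read genes of that class past it.

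Promoter sequences of a few members are shown for the motifs of the regulators named above. RefSeq gave the sequence before the transcription start for 25 of the 32 members on GRCm38.p6 (20 early genes and 5 chaperones), among 27025 genes in all. The Hsf1-type pair of inverted repeats, searched as GAANNTTC on both strands of the 250 bases before the start, was found for 3 of the 5 chaperones (Hspa1a, Hspa1b, Hspb1), for 2 of the 20 early genes (Jun, Fosl2) and for 7.73% of all genes. The full CREB-type site TGACGTCA was found for 2 of the 20 early genes (Dusp1, Btg2), for 0 of 5 chaperones and for 1.77% of all genes. The core of the serum response element was found for 2 of 20 early genes (Egr2, Zfp36), for 0 of 5 chaperones and for 1.62% of all genes. A match is letters and not a site shown to be bound, and no match says only that these letters were not in this window. Hspa1a and Hspa1b are printed over all 250 bases because they lie side by side on chromosome 17 and 247 of the 250 bases are identical, and the others are shown around their match. For Egr2 the printed match stands before the third, the fourth and the fifth of its RefSeq starts, and another match stands before the second. Capitals mark the match, and each sequence reads 5′ to 3′ toward the start of its gene.
Hspa1a, chr17:34972157-34972406, minus strand: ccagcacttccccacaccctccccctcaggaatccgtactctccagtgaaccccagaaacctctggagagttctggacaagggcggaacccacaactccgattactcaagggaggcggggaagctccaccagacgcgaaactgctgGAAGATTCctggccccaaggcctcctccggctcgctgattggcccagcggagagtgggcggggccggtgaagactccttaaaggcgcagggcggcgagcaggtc
Hspa1b, chr17:34959239-34959488, minus strand: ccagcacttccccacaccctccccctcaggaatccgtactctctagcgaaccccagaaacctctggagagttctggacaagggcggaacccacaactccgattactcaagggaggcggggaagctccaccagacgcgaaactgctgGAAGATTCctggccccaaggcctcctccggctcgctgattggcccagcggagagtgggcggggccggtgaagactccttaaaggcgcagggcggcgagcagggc
Hspb1, chr5:135887782-135887849, plus strand: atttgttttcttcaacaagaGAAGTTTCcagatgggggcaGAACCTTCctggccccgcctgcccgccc
Egr2, chr10:67537777-67537826, plus strand: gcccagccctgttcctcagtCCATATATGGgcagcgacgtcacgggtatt
Dusp1, chr17:26508588-26508635, minus strand: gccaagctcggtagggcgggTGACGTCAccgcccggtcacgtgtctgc
Btg2, chr1:134079294-134079341, minus strand: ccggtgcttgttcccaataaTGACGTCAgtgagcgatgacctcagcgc

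The transcripts of Hspa1a and Hspa1b are close to identical too. Their longest reading frames, of 1926 and 1929 bases, matched at 1918 of 1926 positions (99.6%) once a gap of 3 bases was set. Probes may therefore count either gene, the split between both is uncertain, and their sum is given beside them.

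The early genes were graded over the keratinocyte stages, and most of them were lowest in the spinous or granular cells and highest in the lower follicle. Stages were set by marker genes that are not members: basal (2787 wildtype and 2092 Eppk1-/- cells), spinous (858 and 875), granular (474 and 253), upper follicle (427 and 274), lower follicle (782 and 391) and proliferating (110 and 113). Of the 32 members, 28 had their highest level in the same stage in both libraries, 21 of them in the lower follicle, 4 in the basal cells, 2 in the upper follicle and 1 in the granular cells. The highest stage was not counted over all genes, of which 39.1% were above basal by the size rule in the lower follicle, so this count has no baseline. The summed level of the 25 early genes was 39094 CPM in wildtype and 37172 CPM in Eppk1-/- basal cells, 22728 and 21904 CPM in spinous cells, and 59996 and 59504 CPM in the lower follicle.

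Between the basal and the spinous stage, 19 of 25 early genes were lower by the size rule in both libraries, against 26.3% of all read genes. Fos, the partner of Jun in AP-1, stood at 1937 and 2333 CPM in wildtype and Eppk1-/- basal cells and at 842 and 883 CPM in spinous cells. Ier3, an early survival gene, fell from 2381 and 2047 CPM to 376 and 346 CPM. The steroid receptor relative Nr4a1 stood at 1599 and 1457 CPM in basal and at 450 and 329 CPM in spinous cells. Egr3 went the other way, from 372 and 453 CPM in basal to 870 and 927 CPM in spinous cells, the single early gene higher by the size rule (11.5% of all genes were). Of the chaperones, 0 of 7 passed the rule between these stages in either direction.

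The granular cells, which make the cornified layer, had 14 of 25 early genes lower than basal cells in both libraries, while 48.8% of all genes were lower there. Egr1, Egr2, Egr3 and Ier5 were higher than in basal cells in both libraries (18.2% of all genes were). Egr1, an early zinc finger factor, stood at 2819 and 2952 CPM in granular against 1553 and 1607 CPM in basal cells. Ier5 stood at 375 and 347 CPM against 153 and 164 CPM. Hspb1, the small heat shock protein of differentiating epidermis, reached 5424 and 5695 CPM in granular against 2835 and 2405 CPM in basal cells, whereas Hspa8, Hsp90aa1 and Hsph1 were lower there in both libraries.

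In the lower follicle 14 of 25 early genes and 6 of 7 chaperones were above the basal level in both libraries, where 39.1% of all genes were. Egr1 stood at 8682 and 8916 CPM in wildtype and Eppk1-/- lower follicle cells, a log2 ratio over basal of 2.48 and 2.47. Fos stood at 5233 and 5816 CPM and Jun at 7694 and 7684 CPM, against 4524 and 4502 CPM of Jun in basal cells. Hspb1 stood at 8443 and 7011 CPM. Fosl1, Nfkbia and Gadd45b were the 3 early genes lower than in basal cells by the size rule in both libraries (17.1% of all genes were), Fosl1 at 659 and 692 CPM against 1874 and 1851 CPM. Dusp1 (-0.17 and -0.34) and Ier5 (-0.20 and -0.52) also lay below basal in both libraries without passing in both. Hsp90aa1 was the chaperone that did not pass, at 1338 and 1031 CPM against 1013 and 993 CPM.

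The upper follicle differed from the lower in its balance. Hspa1a reached its highest level there, 7143 and 7001 CPM, against 1912 and 1505 CPM in basal cells, and Hspa1b, Hsph1 and Hspb1 were likewise above basal in both libraries (4 of 7 chaperones, 28.6% of all genes). Egr1, Egr2 and Btg2 were the 3 early genes above basal there in both libraries, and Fosl1, Atf3, Myc, Nr4a1, Dusp1 and Gadd45b were the 6 below it (17.6% of all genes). Egr2 rose from 182 and 193 CPM in basal to 844 and 939 CPM in the upper follicle, higher than in any other stage in either library. In proliferating cells 0 of 25 early genes and 0 of 7 chaperones passed the rule against basal cells in both libraries, where 23.5% of all genes were higher and 5.77% lower.

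**Figure D1:**
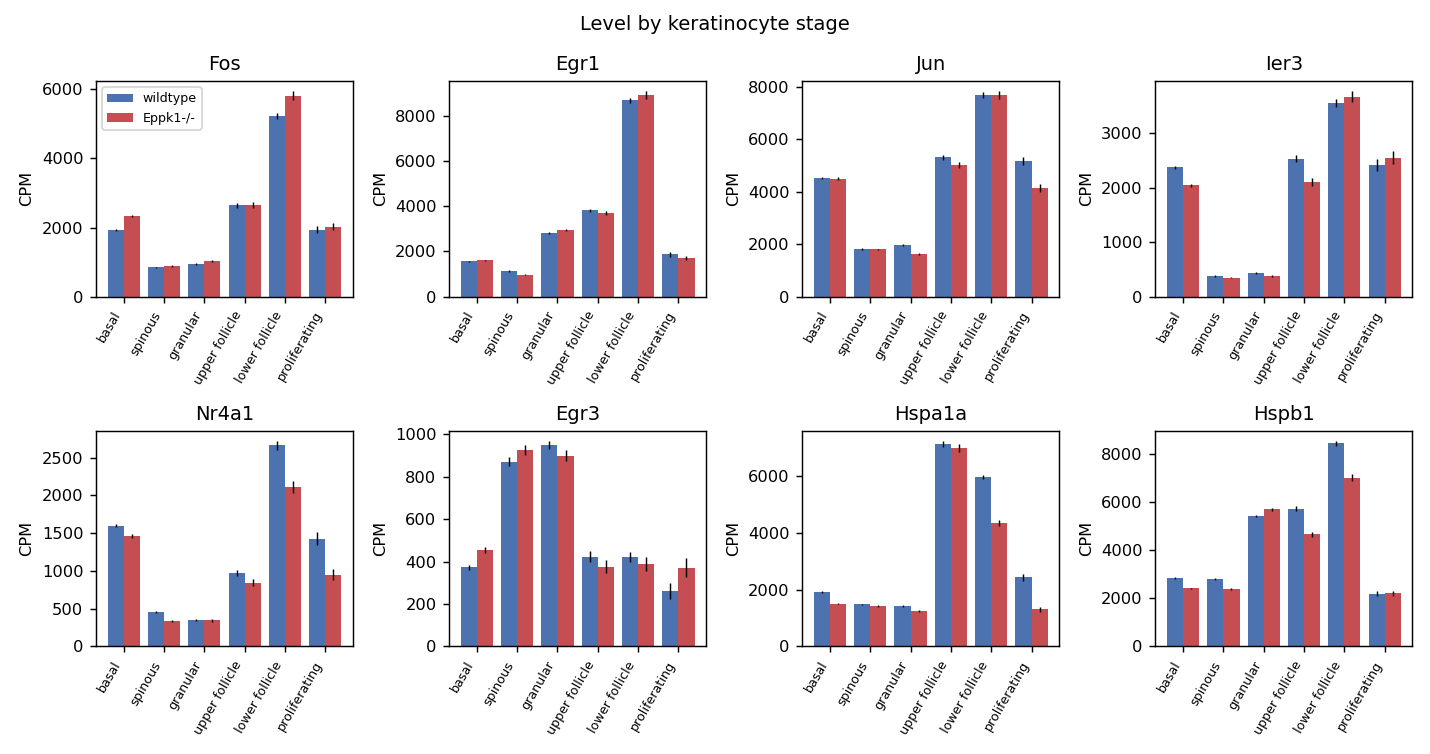
Level of 8 members (CPM, linear axis from 0) in each of 6 keratinocyte stages, wildtype in blue and Eppk1-/- in red, with exact 95% counting intervals and 1 library per bar. Fos, Egr1, Jun, Ier3 and Nr4a1 were highest in the lower follicle in both libraries, Egr3 in the granular or spinous cells, and Hspa1a in the upper follicle.

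The follicle cells also carried more mitochondrial RNA. Its median share was 0.792% and 0.700% in wildtype and Eppk1-/- lower follicle cells and 0.739% and 0.652% in upper follicle cells, against 0.255% and 0.262% in basal cells. Within basal cells thinned to 2000 UMIs, those with at least 0.5% mitochondrial UMIs had medians of 85 and 76 early UMIs and those with less had 64 and 63. Within the lower follicle the medians were 116 and 109 early UMIs at or above 0.5% and 123.5 and 126 below it. Within the upper follicle they were 66 and 68 at or above 0.5% and 70.5 and 61.5 below it. Cells were not matched for the share within either side of this cut. The part of mitochondrial RNA, a sign of cell quality, in the stage levels was not tested.

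Across the cell types, 25 of 32 members were highest in the same class in both libraries: 10 in the T and NK-like, 9 in the keratinocyte-like, 3 in the macrophage-like and 1 each in the sebocyte-like, fibroblast-like and C1q-low myeloid cells. The highest class was not counted over all genes, so this count has no baseline either. Fos stood at 3800 and 2979 CPM in wildtype and Eppk1-/- T and NK-like cells, at 1796 and 1883 CPM in keratinocyte-like cells and at 432 and 300 CPM in sebocyte-like cells. Fosl2, a later Fos protein, stood at 2973 and 2528 CPM in T and NK-like cells against 480 and 447 CPM in keratinocyte-like cells. Fosl1 was the opposite, at 1524 and 1557 CPM in keratinocyte-like and 36.0 and 29.5 CPM in T and NK-like cells.

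Egr3 was highest in sebocyte-like cells, at 1165 and 1261 CPM, against 629 and 659 CPM in keratinocyte-like and 11.4 and 24.97 CPM in macrophage-like cells. Myc, a factor of growth, was highest in fibroblast-like cells, at 918 and 971 CPM, and low in macrophage-like cells, at 50.8 and 69.9 CPM. Zfp36 was highest in the C1q-low myeloid cells, at 3755 and 3698 CPM. Klf2, Ier3 and Ier5 were highest in macrophage-like cells, though Ier3 differed little there from keratinocyte-like cells in wildtype, at 1622 CPM (counting interval 1585 to 1661) against 1585 CPM (1572 to 1598). Dusp2, a phosphatase of lymphoid and myeloid cells, was near absent from the epidermis, at 2.62 and 2.96 CPM in keratinocyte-like cells and at 62.1 and 144 CPM in T and NK-like cells.

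Hspb1 was a keratinocyte gene here, at 4165 and 3465 CPM in wildtype and Eppk1-/- keratinocyte-like cells and at no more than 352 CPM in any other class. In CPM over all cells of a class, Hspa1a and Hspa1b had another highest class in each library: in wildtype both were highest in T and NK-like cells, at 3117 and 3418 CPM, and in the Eppk1-/- library both were highest in macrophage-like cells, at 5002 and 4541 CPM. The wildtype order did not hold in cells thinned to 2000 UMIs, where the mean of Hspa1a was 3.17 UMIs over 59 T and NK-like cells, 5.95 in keratinocyte-like and 6.55 in macrophage-like cells, and that of Hspa1b was 3.39, 7.66 and 6.27 UMIs. Of the same wildtype cells, 23.7% of T and NK-like and 80.1% of keratinocyte-like cells held a Hspa1a UMI. The Eppk1-/- means were still highest in macrophage-like cells among the 6 classes, at 10.5 and 9.48 UMIs. Sebocyte-like cells had the lowest level of both in wildtype, at 1475 and 1426 CPM.

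**Figure D2:**
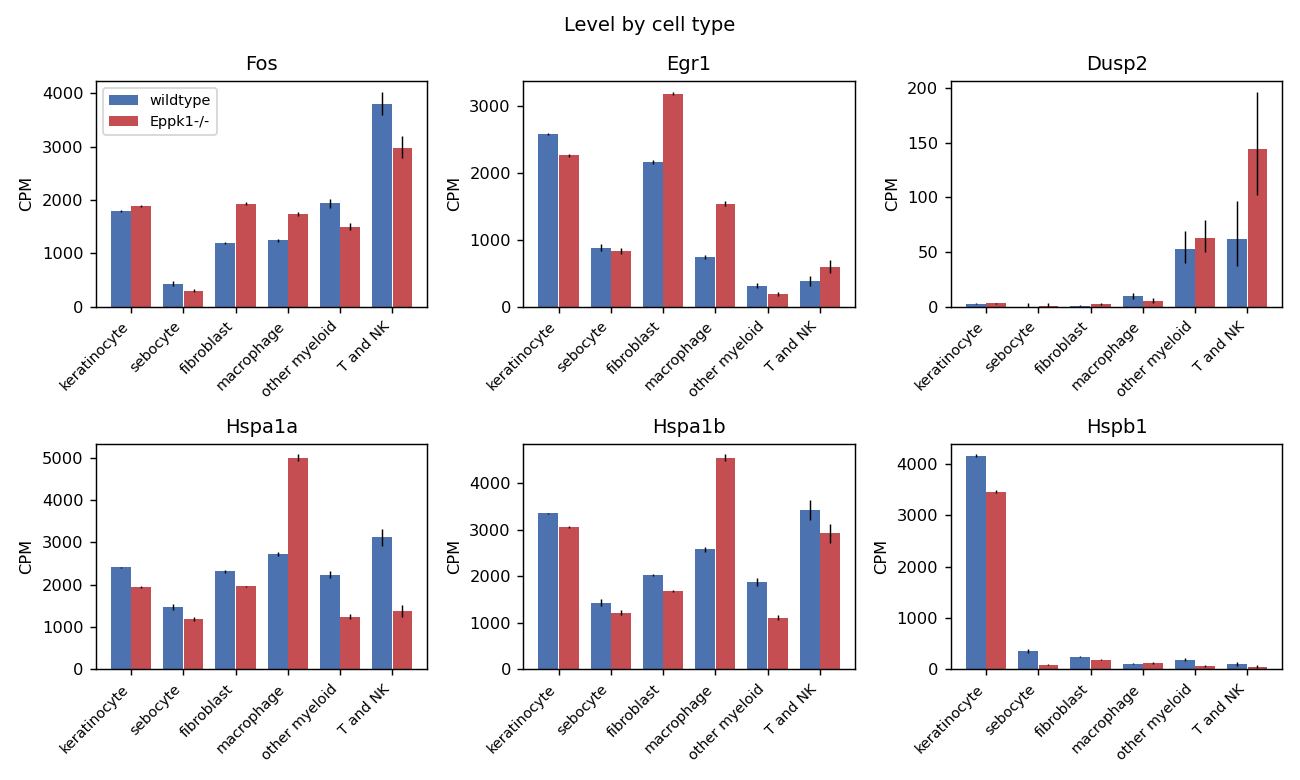
Level of 6 members (CPM, linear axis from 0) in 6 cell classes, wildtype in blue and Eppk1-/- in red, with exact 95% counting intervals and 1 library per bar. Hspa1a and Hspa1b were above wildtype in Eppk1-/- macrophage-like cells and below it in the 5 other classes.

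In keratinocyte-like cells the genotypes were close. Of the 32 members, 0 passed the size rule, where 7.55% of all 11647 read genes did (2.38% higher and 5.17% lower). The median log2 ratio was -0.10 for the 25 early genes and -0.13 for the 7 chaperones, beside -0.03 for all read genes, and 20 of 25 early genes and 6 of 7 chaperones were below 0. The share of all read genes below 0 was not counted, so these counts have no baseline. With stages weighted by wildtype shares the early median was -0.044, beside -0.023 for all read genes. Klf2, a factor better known from endothelium, had the lowest ratio, -0.41 (95% interval -0.54 to -0.29), at 45.2 CPM for the wildtype against 33.9 CPM for the Eppk1-/- mouse. Junb, which forms AP-1 with Fos proteins and restrains growth, stood at 1602 and 1213 CPM, a ratio of -0.40 (-0.42 to -0.38). Btg2, an antiproliferative gene, stood at 593 and 461 CPM, a ratio of -0.36 (-0.40 to -0.33).

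The RNAs of Fos, Fosb and Fosl1 were level between the genotypes. Fos stood at 1796 and 1883 CPM (0.07), Fosb at 1555 and 1578 CPM (0.02) and Fosl1 at 1524 and 1557 CPM (0.03). Fosl2, also of the Fos family, was somewhat lower in Eppk1-/-, with a ratio of -0.10. Jun stood at 3656 and 3393 CPM (-0.11) and Jund at 1466 and 1405 CPM (-0.06). Egr1 stood at 2578 and 2256 CPM, a ratio of -0.19, which became 0.02 with the stages of both libraries weighted alike. The remaining early genes lay between -0.26 (Nr4a1) and 0.18 (Dusp2, with 93 and 71 UMIs). Each of these ratios is smaller than the rule, and whether mice of 1 genotype differ as much is unknown.

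Among the chaperones Hsph1 had the lowest ratio in keratinocyte-like cells, -0.32 (95% interval -0.40 to -0.24), at 95.9 CPM for the wildtype against 76.8 CPM for the Eppk1-/- mouse. Hspa1a stood at 2405 and 1949 CPM (-0.30), Hspa1b at 3343 and 3061 CPM (-0.13), and their sum at 5749 and 5010 CPM (-0.20). Hspb1 stood at 4165 and 3465 CPM (-0.27). Hspa8, the constitutive Hsp70 gene, stood at 912 and 923 CPM (0.02), and Hsp90aa1 and Dnajb1 at -0.04 and -0.08. Lower follicle cells, which are rich in these RNAs, were 782 of the 5481 wildtype and 391 of the 4016 Eppk1-/- keratinocyte-like cells. With stages weighted by wildtype shares the chaperone median was -0.12, beside -0.13 unweighted. Single chaperones moved more than this median. Over the alternatives run, stage weighting among them, the Hspb1 ratio ran from -0.38 to -0.13. By stage it was -0.24 in spinous but 0.07 in granular cells.

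Within the stages, Fos was 0.27 above wildtype in Eppk1-/- basal cells (95% interval 0.24 to 0.29) and Fosb 0.15 above, while Junb was lower with a ratio of -0.43 (-0.46 to -0.39) and Klf2 one of -0.44. In basal cells 0 of 32 members passed the rule, where 7.62% of all genes did (3.3% higher and 4.32% lower). In the lower follicle the early genes had a median of 0.01 and the chaperones one of -0.36, beside -0.0013 for all read genes. All 7 chaperones lay below 0, but Dnajb1 was level at -0.0017 and Hspa8 was close to level, at 1592 and 1514 CPM. Hsph1 was 1 of 2 members past the rule there, at 210 CPM for the wildtype against 142 CPM for the Eppk1-/- mouse (-0.56, -0.80 to -0.33), and Nr4a2 the other, at 167 and 80.5 CPM (-1.05, -1.37 to -0.75), where 7.69% of all genes were lower and 4.44% higher. Hspa1a and Hspa1b together stood at 12875 and 9714 CPM in the lower follicle (-0.41), and at 13934 and 13856 CPM in the upper follicle (-0.01).

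The other stages had few members past the rule. Klf2 was lower in spinous, granular and upper follicle cells, with ratios of -0.53, -0.74 and -0.50, and Nr4a2 was higher in spinous and granular cells, with 0.57 and 0.59 on 104 and 141 and on 88 and 68 UMIs. These were the members past it in those stages, where 4.62%, 7.09% and 7% of all genes were lower and 3.44%, 3.57% and 2.92% higher. Klf2 went the other way in the lower follicle, with a ratio of 0.37 that did not pass the rule. Both libraries had their highest Klf2 level in that stage. In the proliferating cells, 110 wildtype and 113 Eppk1-/- in number, 6 members passed: Egr3 (0.51) and Nr4a2 (0.93) higher, where 5.24% of all genes were, and Klf2 (-0.77), Nr4a1 (-0.59), Hspa1a (-0.90) and Hsph1 (-1.26) lower, where 10.1% were.

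In fibroblast-like cells 5 of 25 early genes were higher in Eppk1-/- and 0 lower, where 9.52% of all 11403 read genes were higher and 6.26% lower. Fos stood at 1200 CPM for the wildtype against 1931 CPM for the Eppk1-/- mouse, a ratio of 0.69 (95% interval 0.66 to 0.71). Egr1 stood at 2162 and 3179 CPM, a ratio of 0.56 (0.54 to 0.58), and Egr2 at 21.9 and 35.1 CPM, a ratio of 0.68 (0.47 to 0.89). Klf2 stood at 147 and 269 CPM, a ratio of 0.87 (0.79 to 0.95), the opposite side from keratinocyte-like cells. Dusp2 had 13 and 43 UMIs, 1.06 and 2.59 CPM, and a ratio of 1.26 with a wide interval (0.37 to 2.31). Fos and Klf2 passed the rule under every alternative run, while the ratio of Egr1 ran from 0.47 to 0.57 over them, that of Egr2 from 0.39 to 0.78 and that of Dusp2 from 0.12 to 1.78.

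The rise was not shared by the AP-1 family as a whole. Jun stood at 1349 and 1741 CPM (0.37) and Atf3, a stress factor that pairs with Jun, at 375 and 517 CPM (0.46), but Fosb (0.04), Junb (-0.04), Jund (0.01) and Fosl2 (-0.00) lay near 0 and Fosl1 at -0.43. The median of the early genes was 0.08, beside 0.07 for all genes. The chaperones had a median of -0.03 and 0 of 7 passed the rule. Hspa1a stood at 2311 and 1957 CPM (-0.24), Hspa1b at 2028 and 1686 CPM (-0.27) and Hspb1 at 249 and 188 CPM (-0.41), while Hspa8 stood at 962 and 1057 CPM (0.14).

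**Figure D3:**
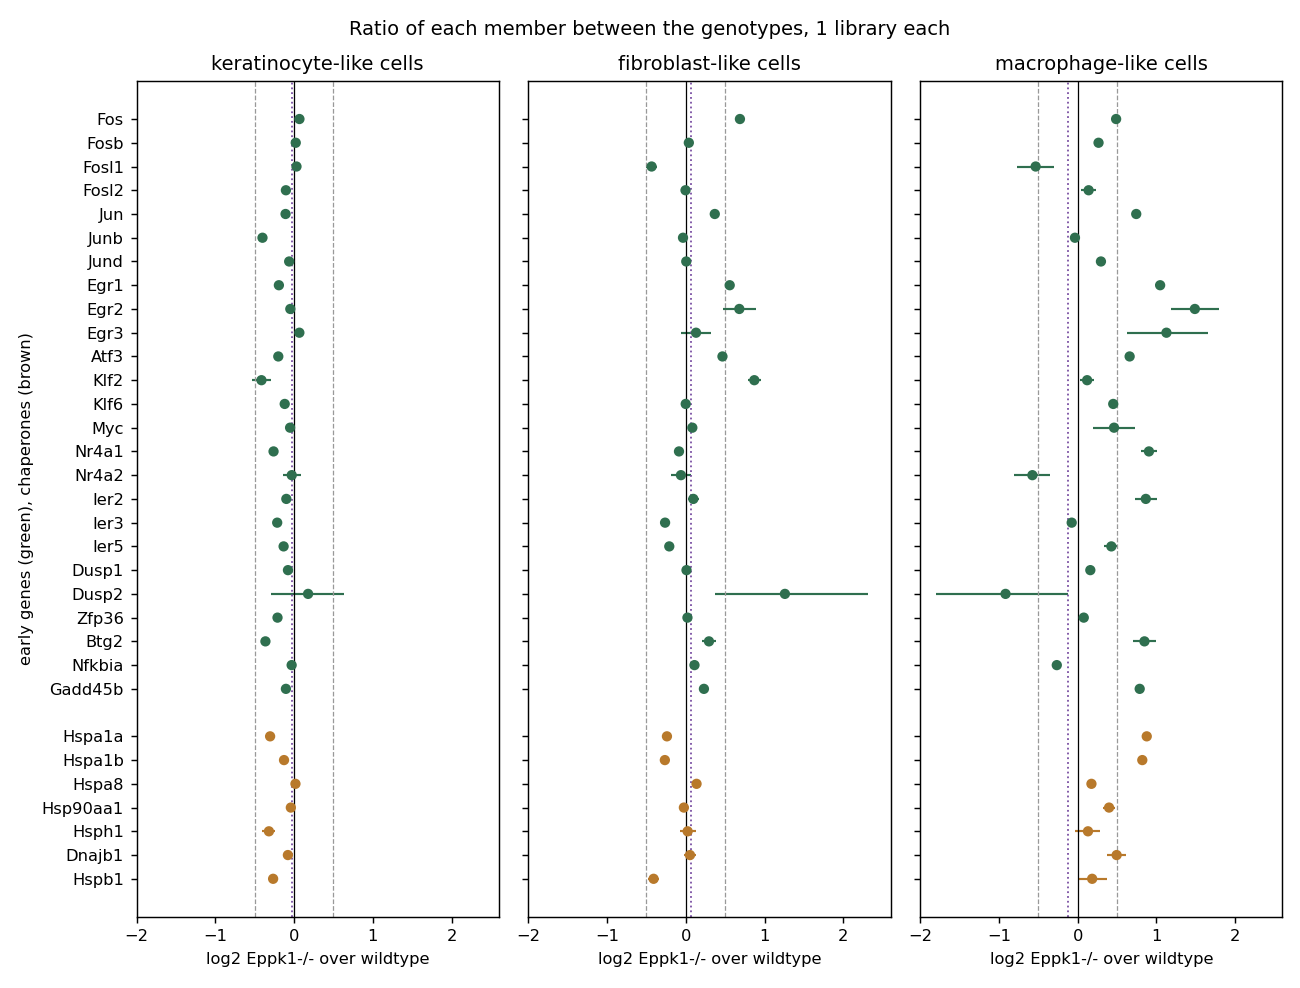
Log2 ratio of Eppk1-/- over wildtype for each of the 32 members in 3 cell classes, 1 library per genotype, with exact 95% counting intervals (lines). Dashed lines mark 0.5 in either direction and the dotted line the median of all read genes. Members lie within the dashed lines in keratinocyte-like cells, 5 lie above them in fibroblast-like cells, and 11 above and 3 below in macrophage-like cells.

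More fibroblast-like cells had a Fos UMI at equal depth. With each cell thinned to 2000 UMIs (134 wildtype and 205 Eppk1-/- cells had fewer), 57.5% of wildtype cells (exact interval 55.0 to 59.98%) and 72.9% of Eppk1-/- cells (71.1 to 74.7%) held a Fos UMI, and 76.9% and 84.5% did unthinned. Egr1 was found in 80.2% and 87.8% of the thinned cells. No class lacked Egr1, and its lowest thinned share was that of the C1q-low myeloid cells, 23.7% and 16.1%. Egr1 was found more often beside Fos: in 87.9% of wildtype fibroblast-like cells with a Fos UMI and in 69.8% of those without, and in 94.0% and 71.3% of the Eppk1-/- cells.

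Fibroblast-like cells were split into sets by trios of genes, a split made after values were seen. Fos was above wildtype in all 4 sets named by a trio, with ratios of 0.25 (Angpt4, Myoc and C7), 0.90 (Cpz, Pla2g5 and Fgfr4), 0.91 (Pla1a, Efhd1 and Ptx3) and 0.66 (Tnmd, Masp1 and Slit2), and one of 0.74 in the cells of no set. Egr1 had ratios of 0.54, 0.72, 0.59 and 0.45 in the same order, and 0.32 in the cells of no set. Klf2 differed in direction between the sets, at 1.40 in the Pla1a, Efhd1 and Ptx3 set and 0.56 in the Angpt4, Myoc and C7 set, but -0.25 and -0.14 in the other two. The Pla1a, Efhd1 and Ptx3 set held 495 wildtype and 968 Eppk1-/- cells, so it also grew as a share of the class. In that set 6 of 24 early genes read were higher and 4 lower, where 16.2% of all genes were higher and 10.8% lower. Its early median was -0.01, beside 0.09 for all genes. The Angpt4, Myoc and C7 set had 5 higher and 1 lower (10.5% and 6.42% of all genes). The Cpz, Pla2g5 and Fgfr4 set had 5 higher and 0 lower (7.46% and 8.22% of all genes). The Tnmd, Masp1 and Slit2 set had 3 higher and 0 lower (7.61% and 6.41%). The cells of no set had 4 higher and 0 lower (12.9% and 6.97%).

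**Figure D4:**
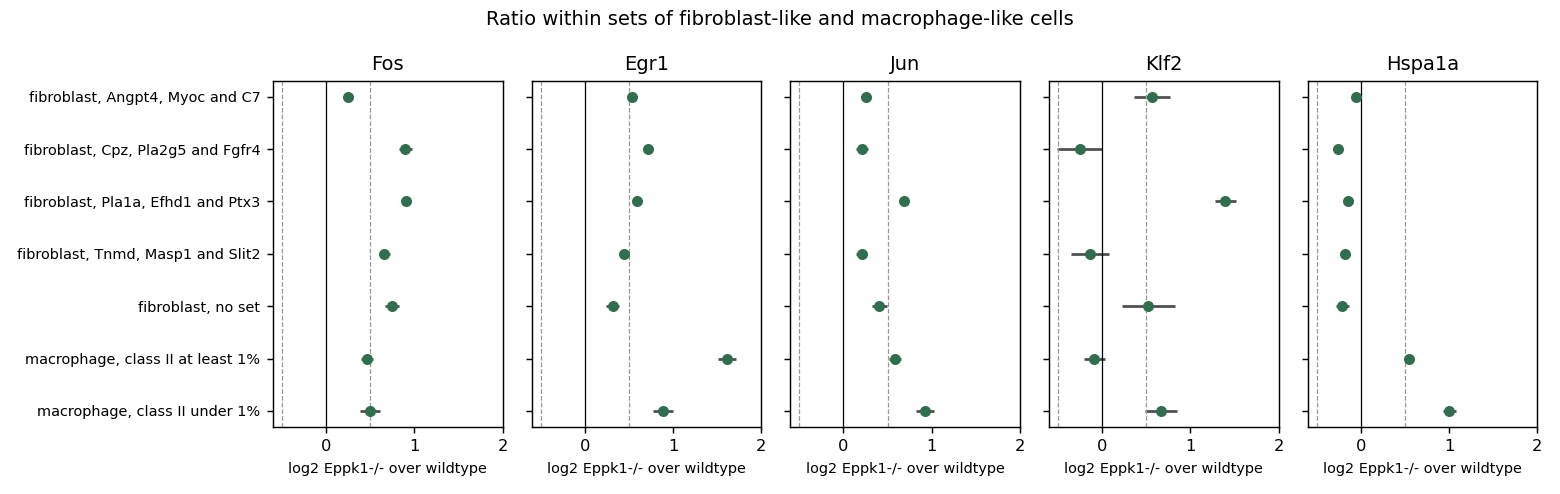
Log2 ratio of Eppk1-/- over wildtype for 5 members within sets of fibroblast-like cells (named by marker trios) and of macrophage-like cells (class II genes at or above and below 1% of UMIs), with exact 95% counting intervals and dashed lines at 0.5. Fos, Egr1 and Jun lie above 0 in each set, while Klf2 lies on both sides of it and Hspa1a is below 0 in each fibroblast-like and above 0 in each macrophage-like set.

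Macrophage-like cells had the most members past the rule: 9 early genes and 2 chaperones were higher in Eppk1-/- and 3 early genes lower, where 7.03% of all 8864 read genes were higher and 18.6% lower. The median of all read genes was itself -0.13 in this class, and relative to it the split became 17 higher and 1 lower. Of the 14 members past the rule, 12 passed it under every alternative that gave a value, and Fosl1 and Nr4a2, both lower, did not. The median ratio was 0.43 for the early genes and 0.40 for the chaperones before centring. The median UMI count of these cells was 7156 in wildtype and 4730.5 in Eppk1-/-, and the part of depth in these values was not tested beyond the thinned values given with them.

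Among the factors, Egr1 stood at 744 CPM for the wildtype against 1537 CPM for the Eppk1-/- macrophage-like cells, a ratio of 1.05 (95% interval 0.98 to 1.11). Egr2, a factor of activated myeloid cells, stood at 29.4 and 82.5 CPM (1.49, 1.19 to 1.80), and Egr3 at 11.4 and 24.97 CPM on 50 and 95 UMIs (1.13, 0.62 to 1.66). Nr4a1 stood at 274 and 512 CPM (0.90), Jun at 1198 and 2006 CPM (0.74) and Atf3 at 1151 and 1818 CPM (0.66). Fos stood at 1241 and 1740 CPM, a ratio of 0.49 that lies just under the rule.

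Of the response genes, Ier2 stood at 147 and 267 CPM (0.86), Btg2 at 133 and 240 CPM (0.85) and Gadd45b, a stress gene that binds MAP kinase kinases, at 1056 and 1822 CPM (0.79). Fosl1 at 95.6 and 66.0 CPM (-0.53), Nr4a2 at 98.8 and 66.2 CPM (-0.58) and Dusp2 at 9.56 and 4.99 CPM (-0.92) were lower. Nfkbia stood at 2398 and 1995 CPM (-0.27), Ier3 at 1622 and 1539 CPM (-0.08) and Junb at 2162 and 2110 CPM (-0.03). The early genes of this class therefore lay on both sides of 0, 19 above and 6 below.

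All 7 chaperones were above wildtype in macrophage-like cells, though Hspb1 and Hsph1 fell below it as a mean over cells (-0.23 and -0.06) and Hsph1 also in thinned cells (-0.03) and without the 10% of cells with most UMIs (-0.10), and both lay below 0 in the macrophages richer in class II genes described next, at -0.13 and -0.28. Hspa1a stood at 2724 CPM for the wildtype against 5002 CPM for the Eppk1-/- mouse (0.88, 95% interval 0.84 to 0.91), Hspa1b at 2572 and 4541 CPM (0.82, 0.79 to 0.85), and their sum at 5296 and 9543 CPM (0.85). Dnajb1, which brings clients to Hsp70, had a ratio of 0.49 and Hsp90aa1 one of 0.40. In cells thinned to 2000 UMIs, 70.4% of wildtype (66.1 to 74.5%) and 79.6% of Eppk1-/- cells (76.4 to 82.5%) held a Hspa1a UMI, and the mean was 6.55 and 10.5 UMIs per cell.

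The class held different mixes of macrophages in the libraries. Cells with class II genes at 1% of UMIs or more numbered 291 in wildtype and 723 in Eppk1-/-, and those below it 258 and 109, a cut chosen after values were seen. The early genes had a median of 0.39 in the first group and 0.55 in the second, and the chaperones one of 0.29 and 0.46. Egr1 was higher in both (1.61 and 0.89), as was Hspa1a (0.55 and 1.0). Other members had opposite signs in the 2 groups, Nfkbia at 0.44 and -0.76, Junb at 0.38 and -0.14, Ier3 at 0.11 and -0.36, and Hsph1 at -0.28 (95% interval -0.47 to -0.09) and 0.46. Over the alternatives run on the whole class, weighting of the 2 groups among them, Nfkbia ran from -0.34 to -0.10 and Junb from -0.04 to 0.12. Ier3 ran from -0.17 to 0.10 and Hsph1 from -0.10 to 0.26. The part of the mix in these values was not tested further. Markers of other classes differed too. In wildtype and Eppk1-/- macrophage-like cells, the fibroblast markers Col1a1 and Dcn stood at 54.4 and 100 CPM and at 47.6 and 70.4 CPM. Pdgfra, also a fibroblast marker, stood at 1.14 and 1.05 CPM. Of the keratinocyte markers, Krt10 (157 and 209 CPM) and Krt14 (12.5 and 22.3 CPM) were higher in Eppk1-/-. Krt5 (24.1 and 12.1 CPM) and Dsp (43.7 and 39.4 CPM) were lower. The part of such RNA in the ratios was not tested.

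The C1q-low myeloid cells, with markers of Langerhans cells, ran the other way for the chaperones. All 7 were below wildtype, with a median of -0.66 beside -0.055 for all read genes. Of the 7, 4 were past the rule, where 9.77% of all genes were lower: Hspb1 (-1.53), Hspa1a (-0.85), Hspa1b (-0.76) and Dnajb1 (-0.66). Hspa1a stood at 2238 CPM for the wildtype against 1241 CPM for the Eppk1-/- mouse (95% interval -0.95 to -0.76), but few cells held most of it: at 2000 UMIs, 28.3% and 24.9% of cells had a Hspa1a UMI. Of 24 early genes read, Egr2 (1.22) and Myc (0.63) were higher, where 6.22% of all genes were, and Egr1 (-0.73) and Ier3 (-0.56) lower. Markers of this class differed between wildtype and Eppk1-/-. Cd207 stood at 5712 and 3838 CPM, Lyz2 at 1971 and 2688, Ccr2 at 130 and 191 and Mrc1 at 426 and 588. The class II gene H2-Aa was alike, at 22340 and 22710 CPM. The part of the mix of cells in these ratios was not tested.

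T and NK-like cells numbered 172 in wildtype and 154 in Eppk1-/-, and their values rest on few UMIs. Of 22 early genes read, Egr1 (0.64), Klf2 (0.52), Myc (1.21, on 28 and 58 UMIs) and Dusp2 (1.19, on 19 and 39 UMIs) were higher, where 10.4% of all genes were. Of 6 chaperones read, Hspa1a (-1.18), Hsp90aa1 (-0.52) and Hsph1 (-0.58) were lower, where 9.9% of all genes were. Hspa1a stood at 3117 and 1377 CPM but Hspa1b at 3418 and 2916 CPM, and their sum at 6534 and 4293 CPM (-0.61). The fall of Hspa1a was not seen among the 59 wildtype and 45 Eppk1-/- cells that reached 2000 UMIs, which had means of 3.17 and 3.82 Hspa1a UMIs after thinning, and 23.7% and 24.4% of them held one. Their chaperone sums had means of 12.3 and 15.1 UMIs and medians of 5 and 4. Nor did a larger share of these Eppk1-/- cells hold an Egr1 UMI. Of cells with a Fos UMI 30.8% in wildtype and 34.4% in Eppk1-/- held one, and of those without 57.1% and 30.8%.

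Sebocyte-like cells numbered 85 in wildtype and 91 in Eppk1-/-, with median depths of 9892 and 17235 UMIs and median mitochondrial shares of 0.972% and 0.551%, whose part in the values was not tested. Of 22 early genes read, 5 were lower, where 19.1% of all genes were: Ier3 (-1.57), Fosl1 (-0.90), Atf3 (-0.56), Myc (-0.54) and Fos (-0.52). The median of all read genes was itself -0.13 in this class, and that of the early genes was -0.09. The ratios were not centred on it, and those of Atf3, Myc and Fos lay near the rule. Zfp36, at 662 and 954 CPM (0.53), was higher, where 6.25% of all genes were. Hspb1 stood at 352 and 90.4 CPM (-1.96, 95% interval -2.25 to -1.68) and Hsph1 at 94.6 and 58.8 CPM (-0.69). Krt5, which these cells share with basal keratinocytes, stood at 240.5 and 112 CPM. Other keratinocyte markers did not fall alike, with Krt14 at 4067 and 4889 CPM, Krt10 at 128 and 194 CPM and Dsp at 796 and 771 CPM. The part of keratinocyte RNA in the Hspb1 value was not tested.

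Single cells showed how the members were spread. The sum of the 25 early genes had a median of 68 and 65 UMIs per 2000 in wildtype and Eppk1-/- basal cells, 41 and 41 in spinous, 42 and 38 in granular, 120 and 116 in lower follicle, 42 and 46 in fibroblast-like and 41 and 49 in macrophage-like cells. The 10% of keratinocyte-like cells with most early UMIs held 24.9% and 25.9% of them, and these cells had a median mitochondrial share of 0.619% and 0.577% against 0.266% and 0.212% in the rest. Each of the 4910 wildtype and 3533 Eppk1-/- keratinocyte-like cells of this depth held at least 1 early UMI.

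Chaperone RNA was less even. Its median per 2000 UMIs was 45 in wildtype and 33 in Eppk1-/- lower follicle cells, 8 and 7 in fibroblast-like cells and 4 and 3 in the C1q-low myeloid cells. In those last cells the top 10% held 64.8% and 64.4% of the chaperone UMIs, against 25.9% and 24.9% of the early UMIs. Over keratinocyte-like cells the early and chaperone sums had a Pearson correlation of 0.37 in wildtype and 0.34 in Eppk1-/-, over 4910 and 3533 cells that share a library and a fixed depth. Hspa1b was found in 85.9% of wildtype macrophage-like cells with a Hspa1a UMI and in 37.1% of those without, and in 88.7% and 40.4% in the Eppk1-/- library.

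**Figure D5:**
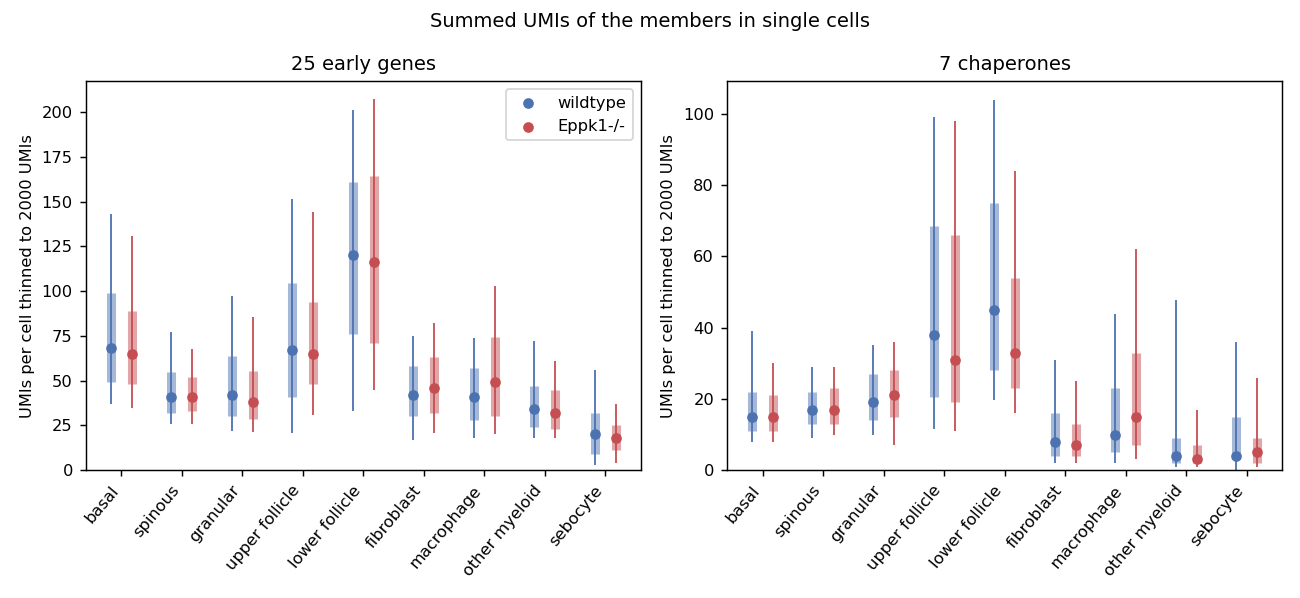
Summed UMIs of the 25 early genes (left) and 7 chaperones (right) in single cells thinned to 2000 UMIs, wildtype in blue and Eppk1-/- in red. Points are medians, thick lines the middle 50% and thin lines the middle 80% of cells. The lower follicle has the highest medians for both groups, and the macrophage-like medians are 41 and 49 early UMIs and 10 and 15 chaperone UMIs.

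Other genes of the same pathways gave a wider view. Of 25 further early genes, 2 were past the rule in keratinocyte-like cells, both lower, as were 5.17% of all read genes: Ccn2, a secreted matrix protein, at 299.9 CPM for the wildtype against 91.6 CPM for the Eppk1-/- mouse (-1.71, 95% interval -1.78 to -1.64), and Cebpd, an inflammatory factor, at 109 and 69.8 CPM (-0.64, -0.73 to -0.56). Their median was -0.08. Of 19 kinases, upstream factors and feedback genes read, 0 passed, with a median of -0.09. Of 20 further chaperones, Cryab, a small heat shock protein, was lower at 72.7 and 48.0 CPM (-0.60, -0.70 to -0.50), and their median was 0.02. By stage the Cryab ratio was -0.20 in basal, -0.53 in upper follicle and -1.03 in proliferating cells. In proliferating cells 3 of 20 further chaperones were lower, Cryab the lowest, and 1 (Bag3, 0.63) higher. Of all genes there, 10.1% were lower and 5.24% higher. In spinous, granular and lower follicle cells 0 of 19, 0 of 20 and 0 of 20 passed. Of all genes in these stages, 4.62%, 7.09% and 7.69% were lower and 3.44%, 3.57% and 4.44% higher. The part of the stage mix in the Cryab value was not tested. Of 6 regulators of the heat shock response, 0 passed, with a median of 0.05.

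In fibroblast-like cells 1 of 25 further early genes was higher (Arc, 0.52 on 128 and 247 UMIs) and 1 of 20 further chaperones lower (Cryab at 643 and 435 CPM, -0.56), where 9.52% of all read genes were higher and 6.26% lower. In macrophage-like cells 7 of 24 further early genes were higher and 1 lower, with a median of 0.30, where 7.03% of all read genes were higher and 18.6% lower and their median was -0.13. Socs3, which ends cytokine signals, stood at 161 and 301 CPM there (0.90), and Ppp1r15a, a stress phosphatase subunit, at 1209 and 1859 CPM (0.62). The further chaperones of the same cells had a median of -0.27, with 0 of 19 higher and 3 lower (Hspe1, Hspb8 and Tcp1), and the heat shock regulators had 2 of 6 lower, Hsbp1 at 503 and 249 CPM (-1.01) and Bag1 at 215 and 131 CPM (-0.72), both counts to be read against the 18.6% of all genes that were lower.

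By position, Myc and Nr4a1 lie on chromosome 15 as Eppk1 does, 14.12 and 25.15 megabases from it on GRCm38, and the other members lie elsewhere. In keratinocyte-like cells Myc stood at 806 CPM for the wildtype against 779 CPM for the Eppk1-/- mouse (-0.05) and Nr4a1 at 1086 and 907 CPM (-0.26).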

How the data were processed

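Single-cell RNA sequencing of dorsal skin (1 wildtype and 1 Eppk1-/- mouse) was analysed. Per the file headers and the labels, the authors made the files with Cell Ranger 8.0.1 on mm10 (GRCm38) and deposited UMI counts per gene and called cell, not normalized and not filtered as in the study's methods. Libraries held 9179 and 8811 cells and 77638793 and 65118304 UMIs. The cell filters were applied, 13 mitochondrial genes were removed, and cells were classed by marker genes: at least 0.5% of UMIs and 3 markers found for a type, and 0.2% to 1% for a keratinocyte stage. These limits were set after marker sums were seen. Cells near a limit (within 2-fold) numbered 328 wildtype and 259 Eppk1-/- for the keratinocyte and 890 and 611 for the lower follicle limit. Cells that reached more than 1 type (540 and 480) were left out as possible doublets, and no doublet caller was run. Mast cells (49 and 57) were not reported.

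UMIs were summed per class and library and scaled to CPM. Ratios had 0.5 UMI added to each sum, and intervals were exact at the 95% level (Poisson for CPM, conditional binomial for ratios, Clopper-Pearson for shares). A count of 0 allows up to 3 counts. Python 3.11.15, numpy 2.4.6, pandas 2.3.3, scipy 1.17.1, matplotlib 3.10.9 and, for TMM factors, R 4.3.3 with edgeR 4.0.16 were used. No model was fitted and no p-value is given. The members, lists and tests were chosen with earlier results of these data known. All 32 members are named, and of the other lists the genes past 0.5, at most 6 per list, in keratinocyte-like cells. Others were named after their values were seen. Sequences came from RefSeq (GRCm38.p6) and GENCODE M21, and Fosl1, Egr1, Egr3, Ier2, Myc, Hspa8 and Hsp90aa1 had no promoter in the table used. On counts simulated for keratinocyte-like cells (11623 genes), a true log2 ratio of 1 was called past 0.5 for 99.0% of the genes given it, as were 1.4% of unchanged genes. For macrophage-like cells (8848 genes) these were 98.5% and 3.58%. The simulated counts held counting error alone, with no spread between mice, cells or dissociations. These shares are therefore not rates of false calls in the real libraries.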

Additional observations from a re-analysis of the deposited data

Results flagged for a closer look

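Members past the size rule in opposite directions in different classes were singled out. No difference between classes was tested, and each class has 1 library per genotype. Egr1 had log2 ratios of 0.56 in fibroblast-like, 1.05 in macrophage-like and 0.64 in T and NK-like cells, but -0.73 in the C1q-low myeloid cells. In the T and NK-like cells the share of thinned cells with an Egr1 UMI did not rise. Fos stood at 0.69 in fibroblast-like and -0.52 in sebocyte-like cells. Atf3 stood at 0.66 in macrophage-like and -0.56 in sebocyte-like cells. Myc stood at 0.63 in C1q-low myeloid and 1.21 in T and NK-like cells and at -0.54 in sebocyte-like cells. The sebocyte-like values lay near the rule and were not centred on the median of all read genes of that class, -0.13. Dusp2 stood at 1.26 in fibroblast-like and 1.19 in T and NK-like cells and at -0.92 in macrophage-like cells. Hspa1a stood at 0.88 in macrophage-like cells, -0.85 in C1q-low myeloid cells and -1.18 in T and NK-like cells (where thinned cells did not show the fall), and its near copy Hspa1b at 0.82 and -0.76 in macrophage-like and C1q-low myeloid cells.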

How the results depend on the processing

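No paired analysis was possible because each genotype has 1 library. The fibroblast-like chaperone median changed sign, from -0.03 to 0.0049, without the shared droplet barcodes, and no other median changed sign under the alternatives run. In keratinocyte-like cells the early median (-0.10) became -0.15 with cells thinned to 2000 UMIs, -0.14 without the 10% of cells with most UMIs and -0.044 with stages weighted by wildtype shares. The chaperone median there (-0.13) became -0.11 with TMM scaling, -0.10 centred on all genes, -0.27 as a mean over cells, -0.079 without a cell filter, -0.24 thinned and -0.19 without the top 10%. Thinning gave 1 member (Hsph1, -0.57) past the rule in place of 0. In fibroblast-like cells the chaperone median (-0.03) became -0.087 with TMM, -0.094 centred, -0.092 as a mean over cells and -0.082 without the top 10%, and the count of 5 became 2 as a mean over cells and 3 thinned. In macrophage-like cells, whose alternatives were added after seeing the data, the early median (0.43) became 0.53 with TMM, 0.55 centred, 0.27 as a mean over cells, 0.30 thinned, 0.31 with the class limit doubled and 0.32 with class II sets weighted by wildtype shares, and the chaperone median (0.40) became 0.50, 0.52, 0.32 as a mean over cells and 0.31 thinned. The count of 14 there ran from 12 to 18, and its split of 11 higher and 3 lower became 16 and 1 with TMM and 17 and 1 centred. Of the members past the rule, 2 of 5 in fibroblast-like and 12 of 14 in macrophage-like cells passed it under each alternative that gave a value. With the cells thinned, 22 members were highest in the same class in both libraries in place of 25, and 27 of 31 were highest in the same stage in place of 28 of 32.

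There was 1 mouse per genotype, so intervals cover counting error and not the spread between mice, punches or dissociations. Class names rest on marker limits, and the follicle stages hold cells with more mitochondrial RNA. Counting error limits Dusp2 in each class, where a library held at most 93 UMIs of it.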
